A study of Mus musculus with 3 samples.

Results

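The regions described here are the peaks of the chromatin protein Utf1 on mouse chromosome 11, taken from 2 deposited peak lists of chromatin immunoprecipitation with sequencing (ChIP-seq). Every peak placed on chromosome 11 was taken, apart from those touching the HoxB homeobox cluster at 96.04 to 96.24 Mb (build mm9, 1-based, as are all coordinates here), where 33 biotin peaks and 0 endogenous peaks were left out. This gave 11128 of 152608 peaks (7.29%) in the list of biotin-tagged Utf1 and 342 of 10506 peaks (3.26%) in the list of endogenous Utf1. The choice used position and no measured value of a peak, but chromosome 11 was known from earlier results of the same lists to be the densest autosome of the biotin list and the sparsest of the endogenous list.

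All libraries came from KH2 cells, a mouse embryonic stem cell line, kept in standard serum medium with LIF on irradiated CF1 mouse embryonic fibroblasts, so feeder chromatin may be present in each. There were 3 groups with 1 library each: a ChIP of Utf1 carrying a biotin tag, a ChIP of endogenous Utf1 in cells with the same labels, and a whole-cell extract without antibody, of which no values were analysed here. The labels name the same Utf1 antibody for both ChIPs, although streptavidin beads are described in the protocol for the tagged protein. The labels give neither the promoter driving the tagged protein nor the number of clones.

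Utf1, undifferentiated embryonic cell transcription factor 1, is tightly bound to chromatin in pluripotent cells and is a classic target gene of Oct4 and Sox2. In mouse embryonic stem cells it is known for occupying many promoters, among them bivalent ones, which carry both activating and Polycomb-associated histone marks. Mouse chromosomes have their centromere at one end, so coordinates run from the centromere side to the far telomere. Chromosome 11 is known for its many genes, such as Trp53, the alpha-globin genes and the Hoxb genes, and much of its distal part corresponds to human chromosome 17. The RefSeq table of another assembly, GRCm38.p6, assigned 1609 protein-coding genes to it, the third highest count of 19 autosomes, where the other 18 had a median of 1021.5. No gene is named at a peak, since no annotation of the mm9 build was used.

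The values of a peak are the authors' own: tags (reads listed for the peak), fold enrichment over a background that the labels do not describe, and a p-value written as 10 times its −log10. Library depth is unknown. The chromosome 11 peaks held 1110283 tags over 16.5 Mb in the biotin list and 7377 tags over 0.223 Mb in the endogenous list, which are sums over listed peaks and not library sizes. With 1 library per list, no difference was tested. Intervals are 95% and cover counting error, which understates the uncertainty, since peaks cluster: the variance of biotin counts over 1 Mb windows of chromosome 11 was 52.9 times their mean, and that of endogenous counts 2.41 times.

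Chromosome 11 had the highest density of biotin peaks and the lowest density of endogenous peaks among the 19 autosomes. It held 91.5 biotin peaks per Mb (95% Poisson interval 89.8 to 93.2). The other 18 autosomes had a median of 59.9 and ran from 39.1 on chromosome 3 to 77.5 on chromosome 17 (75.7 to 79.3). The Poisson intervals of chromosomes 11 and 17 did not overlap, but they leave out the clustering of peaks. For endogenous peaks the density was 2.81 per Mb (2.52 to 3.13), against a median of 3.92 and a range of 2.87 to 4.60. Here chromosome 11 could not be told apart from chromosome 19, whose 2.87 per Mb had an interval of 2.46 to 3.33. The upper limit of chromosome 11, 3.126, also reached the intervals of chromosomes 2 (3.112 to 3.652) and 12 (3.125 to 3.795). By endogenous tags per Mb chromosome 19 was lower, at 53.9 against 60.7 on chromosome 11. There were 32.5 biotin peaks for each endogenous peak, against 8.56 to 23.3 on the other autosomes.

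**Figure D1:**
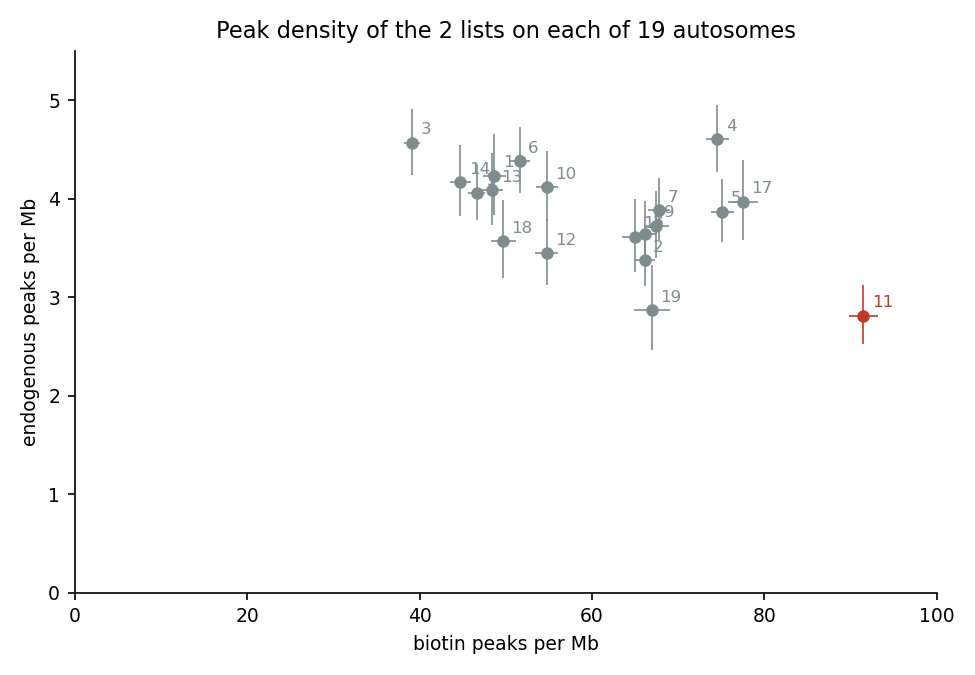
Endogenous peaks per Mb (vertical axis) against biotin peaks per Mb (horizontal axis) for 19 autosomes, each marked by its number, with 95% Poisson intervals as bars. Chromosome 11, in red, lies at 91.5 biotin and 2.81 endogenous peaks per Mb, to the right of and below the other 18.

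Across the 19 autosomes Pearson's r between both densities was −0.52 and Spearman's rho −0.42. Without chromosome 11 these became −0.33 and −0.31. The points share 2 libraries and the base composition of each chromosome, and the values are a description. By covered sequence chromosome 11 took the same places: biotin peaks covered 13.6% of chromosome 11, against 4.90 to 11.5% of the other autosomes, and endogenous peaks covered 0.183%, against 0.185 to 0.399%.

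Single peaks on chromosome 11 were much like those elsewhere. Biotin peaks had a median width of 1128 bp (interquartile range 863 to 1708), against 1083 bp (851 to 1595) on the other autosomes pooled. Their median tag count was 56 (34 to 117), against 53 (34 to 108). The median fold was 4.14 in both sets, with upper quartiles of 5.95 and 6.03, and the median tags per kb of peak were 47.3 and 46.9. Peaks were thus somewhat wider with about the same tag density. Chromosome 11 took place 2 of 19 autosomes by median width, after chromosome 4 with 1146 bp. Over the 19 autosomes Pearson's r between biotin density and median width was 0.90, as a description.

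The upper tail showed the same contrast between width and enrichment. Of the chromosome 11 biotin peaks, 1992 (17.9%) were wider than 2 kb, 2.98 percentage points (Newcombe interval 2.26 to 3.73) above the other autosomes. Over 5 kb were 174 (1.56%), against 1.09% on the other autosomes pooled. By chromosome this was place 5 of 19, with 1.74% on chromosome 4 as the highest. A fold of 10 or more was listed for 498 peaks (4.48%), against 4.77%, a difference of −0.29 points (−0.68 to 0.12) whose interval includes 0. The p-value stood at or above 3100 in 145 peaks (1.30%), against 1.13%. The biotin peak with the most tags, chr11:117166611-117184313, had 2349 tags over 17703 bp and a fold of 14.6.

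Endogenous peaks on chromosome 11 were narrow and weak, as they were on the other autosomes. Their median width was 596 bp (573 to 644), against 597 bp, their median tag count 14 (13 to 16), against 14, and their median fold 1.57 (1.37 to 1.79), against 1.57. The smallest count in the list, 13 tags, was that of 150 of the 342 peaks, or 43.9% (38.5 to 49.3), against 40.9% elsewhere. Up to 20 tags were listed for 316 peaks (92.4%). The remaining 26 with 21 tags or more made up 7.60% (5.03 to 10.9), against 10.6%, and the interval of this difference, −5.47 to 0.34 points, includes 0.

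A few endogenous peaks held a large part of the tags. The 5 with over 100 tags carried 1972 of 7377 tags, or 26.7%. The first listed peak of the chromosome, chr11:2999840-3005291, had 1222 tags over 5452 bp at a fold of 1.90, and the nearest biotin peak lay 160 kb away. The others, with 109 to 327 tags, had folds of 1.04 to 1.70. The highest tag counts thus stood at folds well under the largest of the chromosome, 4.01, and 1 of the 5, chr11:88942855-88943522 with 109 tags, overlapped a biotin peak.

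A larger share of the windows of chromosome 11 than of the other autosomes was dense in biotin peaks. In 117 complete windows of 1 Mb the median was 83 biotin peaks (interquartile range 29 to 145, range 4 to 288), against 36 (15.75 to 87, range 0 to 319) in 2288 windows of the other autosomes. More than 80 biotin peaks were found in 60 windows, or 51.3% (Clopper-Pearson interval 41.9 to 60.6), against 629, or 27.5% (25.7 to 29.4). These 60 windows held 82.8% of the windowed biotin peaks and 38.6% of the endogenous peaks. The 629 windows of the other autosomes held 65.3 and 17.7% of theirs. In both sets dense windows thus held more of the biotin and less of the endogenous peaks than their share of windows. Chromosome 11 has 4.86% of all 2405 autosomal windows. It held 1 of the 10 densest windows, 3 of the 25 densest, 5 of the 50 densest and 6 of the 100 densest.

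Windows followed each other in kind. Spearman's rho between the biotin counts of successive windows in the set was 0.71, a description, since windows share the library. Neighbouring windows with over 80 biotin peaks formed 16 blocks. The longest block ran from 113 to 121 Mb, where each of 8 windows held 170 to 288 biotin peaks, 237.6 on average. Others ran from 97 to 104 Mb with 175 per window, from 74 to 81 Mb with 134 and from 57 to 63 Mb with 136. The HoxB window left out here separates the block of 97 to 104 Mb from one of 94 to 96 Mb, which would otherwise have to be considered together. With that window left out, blocks as such were not unusual in length. The longest block of the other autosomes spanned 4 to 20 windows with a median of 7.5, and 8 chromosomes had a longer one than chromosome 11. The place of chromosome 11 could change if the left-out window joined the blocks on both sides of it.

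The distal 8 Mb, singled out after its values were seen, held 1901 biotin peaks, which is 17.1% (16.4 to 17.8) of those on the chromosome, and 22.3% of their tags. It held 17 endogenous peaks, 4.97% (2.92 to 7.84), or 2.125 per window, against a mean of 2.88 over the 117 windows. The segment makes up 8 of these windows, a share that lies inside the endogenous interval. The endogenous count was thus within counting error of the share by length. The 5 densest biotin windows all lay there. The window of 118 to 119 Mb had 288 biotin peaks covering 51.9% of its sequence and 0 endogenous peaks, and ranked the fourth of all autosomal windows. That of 119 to 120 Mb had 266 and 0, that of 117 to 118 Mb 259 and 1, that of 113 to 114 Mb 251 and 0, and that of 115 to 116 Mb 238 and 4. Biotin peaks covered 38.2 to 57.7% of these 5 windows. None of their 5 endogenous peaks overlapped a biotin peak, where over all windows of chromosome 11 with more than 150 biotin peaks 15 of 40 did (37.5%). The 40 include these 5, of which 4 lay in the window of 115 to 116 Mb. No lack of overlap can be read from so few peaks.

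Of the 5 sparsest windows, 3 lay side by side. Between 37 and 40 Mb there were 6, 6 and 5 biotin peaks per window, with 0, 2 and 5 endogenous peaks. The window of 92 to 93 Mb had 4 biotin and 3 endogenous peaks, and that of 111 to 112 Mb 8 and 1. The longest stretch without a biotin peak, chr11:38874320-39607330, spanned 733 kb and held 2 endogenous peaks, whereas the median gap between biotin peaks was 2.54 kb. The longest stretch without an endogenous peak, chr11:111082583-114478687, spanned 3396 kb and held 431 biotin peaks.

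Divided into 10 bins of equal length from the first listed peak to the last listed base, the chromosome showed opposite gradients in the lists. Biotin density was 33.8 to 73.5 per Mb in the first 4 bins and 90.0 to 174 in the last 6. The last bin, with 174 per Mb (167 to 182), was above the same bin of each of the other 18 autosomes (38.1 to 172 per Mb), though the interval reaches that of the next highest. The second bin, with 33.8 per Mb, was below 15 of them. Endogenous density was 4.21 (3.12 to 5.55) and 4.46 per Mb in the first 2 bins and 2.02 and 1.85 (1.16 to 2.80) in the last 2. Relative to its own chromosome mean, the last biotin bin stood at 1.86. On the other autosomes the median was 1.61 and the range 0.673 to 2.54. A dense distal end was thus common, and the last bin was the densest on 7 of 19 autosomes. Relative endogenous density was 1.46 in bin 1, against a median of 1.51 elsewhere, and 0.70 in bin 9, against 0.70. A fall between these bins was thus not particular to chromosome 11. In the last bin it was 0.64, against 0.86, and below 17 of the other 18.

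**Figure D2:**
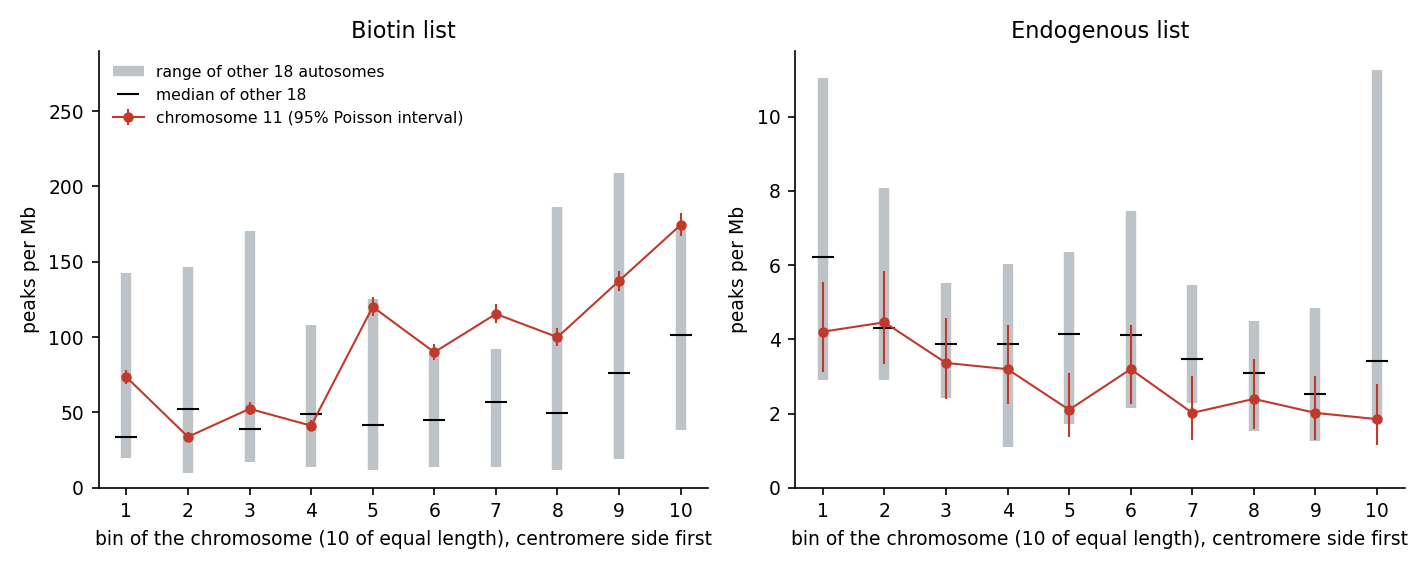
Peaks per Mb in each of 10 equal bins of chromosome 11 (red, with 95% Poisson intervals) for the biotin list (left) and the endogenous list (right), beside the range (grey bars) and the median (black ticks) of the same bin on the other 18 autosomes. Biotin density is highest in the last bin, at 174 per Mb, where endogenous density is lowest, at 1.85 per Mb.

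Within chromosome 11, windows rich in biotin peaks tended to be poor in endogenous peaks. Spearman's rho between both counts was −0.31 over 117 windows. It was also −0.31 over the windows of the other autosomes pooled, and −0.47 to −0.14 chromosome by chromosome, with 9 of 18 below chromosome 11. The 5 windows with most endogenous peaks had few biotin peaks: 14 endogenous and 35 biotin at 73 to 74 Mb, 11 and 16 at 17 to 18 Mb, 10 and 18 at 15 to 16 Mb, 9 and 15 at 13 to 14 Mb, and 8 and 18 at 10 to 11 Mb. The last was taken by position among 3 windows with 8 endogenous peaks, and the others, at 28 to 29 and 30 to 31 Mb, had 14 and 23 biotin peaks. Of the 14 endogenous peaks at 73 to 74 Mb, 0 overlapped a biotin peak, in a window of which biotin peaks covered 3.85%. No endogenous peak was found in 20 windows, or 17.1% (10.8 to 25.2), against 7.08% (6.06 to 8.21) elsewhere. These 20 windows had a median of 150 biotin peaks (range 6 to 288), against 83 over all 117 windows. The 162 such windows of the other autosomes had a median of 80, against 36 over all windows there.

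**Figure D3:**
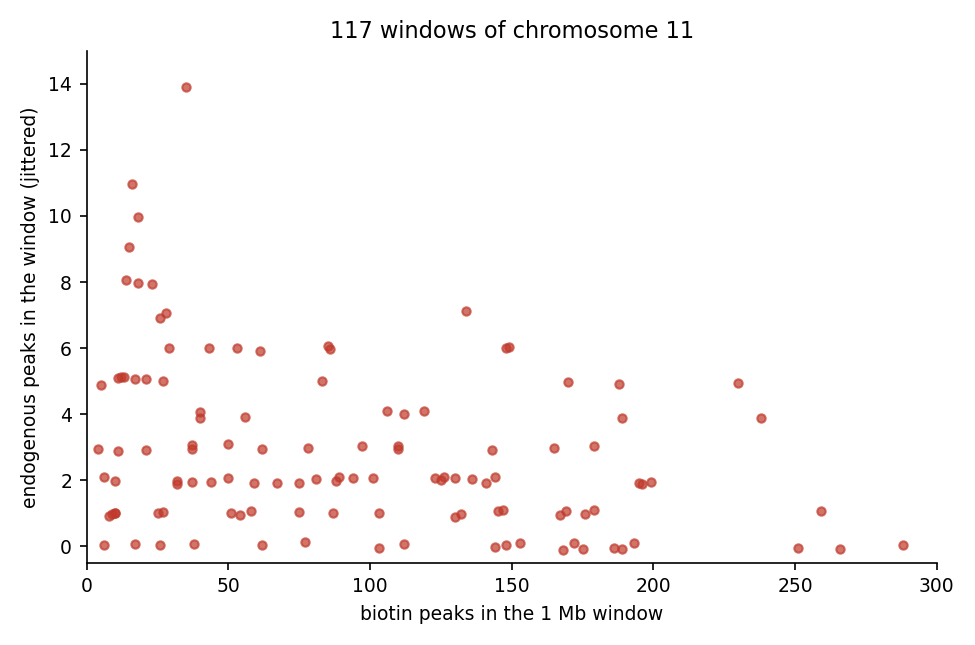
Endogenous peaks against biotin peaks in 117 windows of 1 Mb on chromosome 11, 1 point per window, with a small vertical jitter so that equal counts can be seen. Windows with over 8 endogenous peaks lie at 15 to 35 biotin peaks, and windows with over 250 biotin peaks have 0 or 1 endogenous peak.

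To set chromosome 11 beside sequence of the same biotin density, windows were put into 5 classes by their number of biotin peaks. In every class chromosome 11 had fewer endogenous peaks per window than the other autosomes, at 0.72 to 0.92 times their level. With 21 to 40 biotin peaks the values were 4.05 (3.20 to 5.07) and 5.26 (5.06 to 5.47). With 41 to 80 they were 2.50 (1.82 to 3.35) and 3.46 (3.28 to 3.64), and above 150 they were 1.60 (1.14 to 2.18) and 2.21 (2.02 to 2.41). The intervals overlapped in each class.

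Added up over classes, the 117 windows held 337 endogenous peaks (302 to 375). The other autosomes would give 469.8 at their mean rate and 410.4 when their rate in each class is applied to the windows of chromosome 11. The reweighted 410.4 lies between the other values and above the counting interval. Reweighting in this way was also applied to runs and wide peaks. Biotin peaks in runs of 2 or more made up 47.9% (47.0 to 48.9) of those in windows on chromosome 11, against 40.1% elsewhere as it stands and 46.2% reweighted. Biotin peaks over 5 kb made up 1.59% (1.36 to 1.84), against 1.09 and 1.35%. Their median width was 997 bp in the sparsest and 1244 bp in the densest class on chromosome 11, and 1016 and 1214 bp on the other autosomes.

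**Figure D4:**
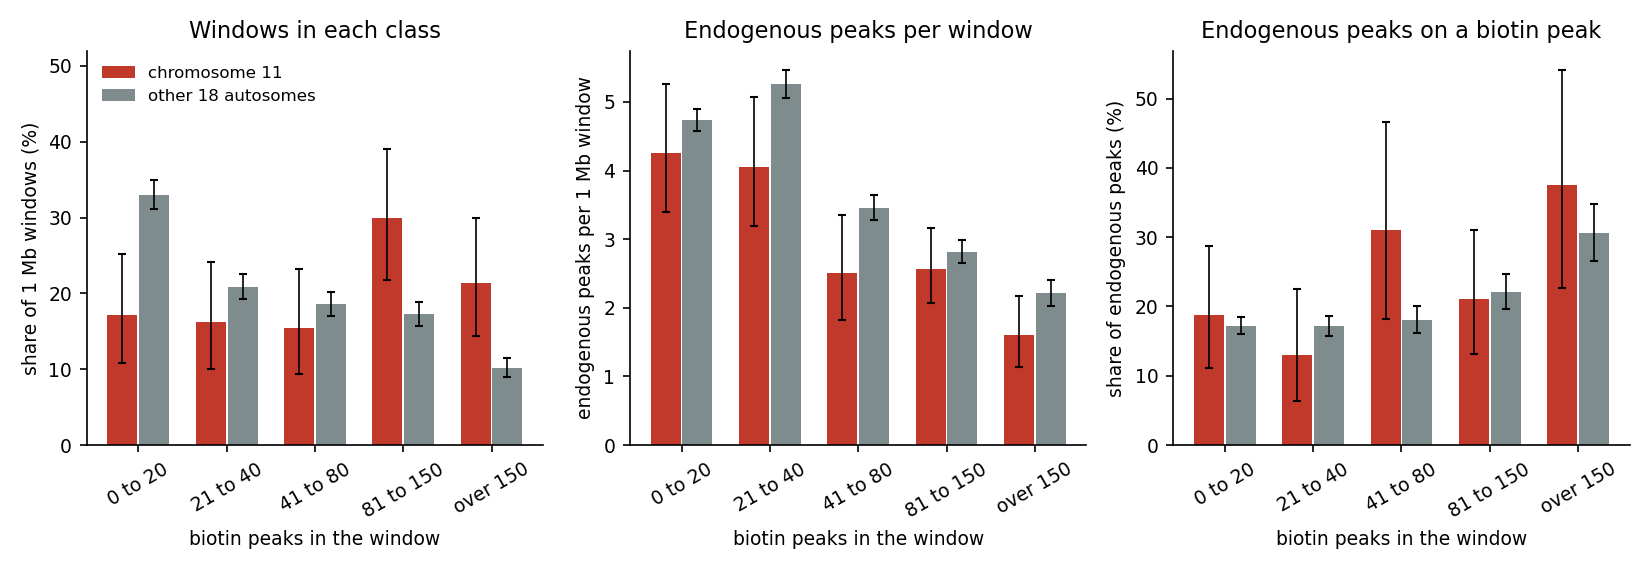
Windows of chromosome 11 (red) and of the other 18 autosomes (grey) by the number of biotin peaks they hold: share of windows (left), endogenous peaks per window (middle) and share of endogenous peaks that overlap a biotin peak (right), with 95% intervals. Chromosome 11 has 29.9 and 21.4% of its windows in the 2 densest classes, against 17.3 and 10.2%.

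Runs were formed by joining biotin peaks with at most 1 kb between them. Chromosome 11 had 7821 runs, 2007 of them with 2 or more peaks, and 5314 of its 11128 peaks (47.8%, 46.8 to 48.7) lay in such runs. On the other autosomes the share was 40.1% pooled and 27.0 to 49.4% by chromosome, and chromosome 4 was above chromosome 11. The share with 5 or more peaks in the run was 7.72% (7.23 to 8.23), against 6.08% (5.95 to 6.21). Over the 19 autosomes, Pearson's r between biotin density and the share in runs was 0.91 and Spearman's rho 0.91, as a description, since closer peaks are joined more often by construction.

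**Figure D5:**
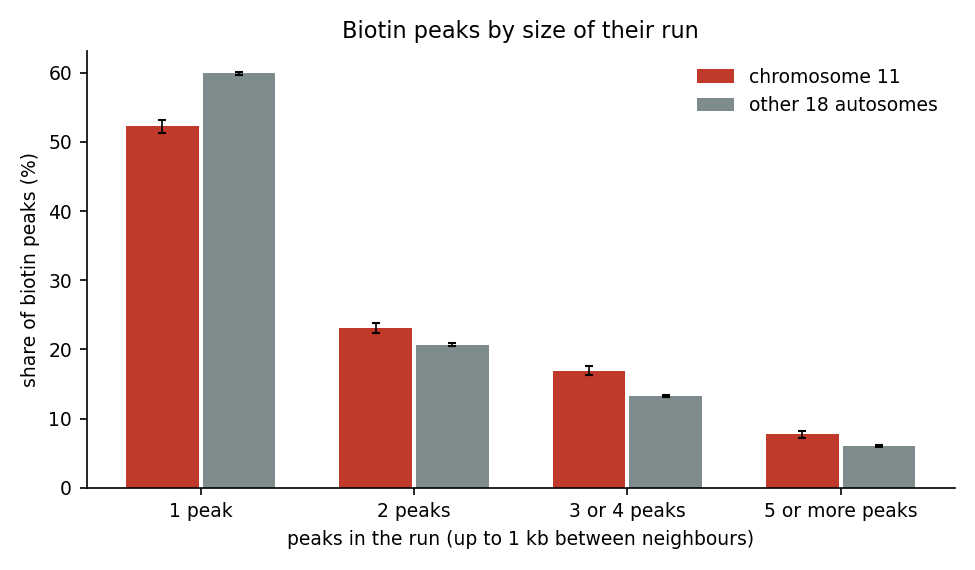
Share of biotin peaks (vertical axis, percent) by the number of peaks in the run they belong to, on chromosome 11 (red) and on the other 18 autosomes pooled (grey), with 95% Clopper-Pearson intervals. Single peaks make up 52.2% on chromosome 11 and 59.9% elsewhere, and each class of longer runs is larger on chromosome 11.

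Runs over 20 kb numbered 25 on chromosome 11, or 20.6 per 100 Mb, against 0 to 23.8 on the other autosomes. They held 190 peaks, 3 to 22 each, with 58.4 to 122 tags per kb, and 17 of them began beyond 113 Mb. The longest, chr11:117893403-117966250, was 72.8 kb long with 22 peaks, the most in any autosomal run, where the other autosomes reached 7 to 20. By the length of the longest run chromosome 11 took place 3, after chromosomes 6 (149 kb) and 12 (75.4 kb). A second run of chromosome 11, chr11:117859212-117892201, ended shortly before its longest run and was 33.0 kb long with 10 peaks and 2241 tags. The others among the 5 longest were chr11:120084986-120137036 (52.1 kb, 7 peaks, 81.4 tags per kb), chr11:116075472-116110453 (35.0 kb, 9 peaks, 71.0 tags per kb) and chr11:119854526-119885146 (30.6 kb, 7 peaks, 68.6 tags per kb). Peaks filled 88.3 to 94.3% of these 5 runs, and none held an endogenous peak, the nearest being 45.6 to 481 kb away. Of all 25 runs, with a median length of 24.1 kb, 1 held an endogenous peak. Endogenous peaks stood at 2.81 per Mb on the chromosome, with a median gap of 156 kb. Stretches as short as these runs would seldom hold one in any case, so no absence can be read from these counts. The endogenous list formed 336 runs on chromosome 11, 6 of them with 2 peaks and none with more.

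Of the 342 endogenous peaks on chromosome 11, 74 overlapped a biotin peak by at least 1 bp, or 21.6% (17.4 to 26.4). The share was 18.6% (17.8 to 19.4) on the other autosomes, and the difference of 3.04 points (−1.08 to 7.77) was within counting error. It stands beside a biotin list that covered 13.6% of chromosome 11 and a median of 8.29% of the other autosomes, and a share expected from position alone was not computed. From the other side, 74 of 11128 biotin peaks lay on an endogenous peak, 0.665% (0.523 to 0.834), the lowest of the autosomes, where the others ran from 0.826 to 2.26%. With 32.5 biotin peaks to each endogenous one this share is held low by the list lengths. Reweighted to the window classes of chromosome 11, the other autosomes gave 0.766%, against 0.677% (0.532 to 0.849) in the windows of chromosome 11.

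By class of biotin density, the endogenous share on chromosome 11 was 18.8% (16 of 85 peaks), 13% (10 of 77), 31.1% (14 of 45), 21.1% (19 of 90) and 37.5% (15 of 40), from the sparsest to the densest windows. The other autosomes had 17.2, 17.1, 18, 22.1 and 30.6%. In the class of 41 to 80 biotin peaks the difference of 13.1 points (1.31 to 27.7) excluded 0, and in the other 4 the interval included 0. With windows of 0.5 Mb that difference was 4.16 points (−5.32 to 17.5), and counting only summits within 250 bp it was 8.43 points (1.25 to 21.3).

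On chromosome 11 shared biotin peaks had somewhat more tags than unshared ones at about the same width, while endogenous medians were alike. Shared biotin peaks had a median width of 1118 bp, 67 tags and a fold of 4.40, against 1128 bp, 56 tags and 4.14 for the 11054 unshared ones. Their median tags per kb were 53.1, against 47.2, and the upper quartile of their fold was 7.27, against 5.94. With 74 shared peaks, these differences were not tested. Shared endogenous peaks had a median of 14 tags and a fold of 1.55, against 14 tags and 1.57 for the 268 unshared ones. Of these 268, 37 lay within 1 kb of a biotin peak, and the median distance was 5.76 kb (interquartile range 1.76 to 20.6), against 7.13 kb elsewhere.

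The shared peaks formed 75 pairs, whose summits were seldom at the same place. The median distance between summits was 514 bp (250.5 to 773.5), against 497 bp on the other autosomes. In 19 pairs, or 25.3% (16.0 to 36.7), the summits lay within 250 bp, against 25.3% (23.3 to 27.4) elsewhere. In 21 pairs the endogenous peak lay wholly inside the biotin peak. Over the 75 pairs Spearman's rho was −0.09 between the folds and 0.04 between the tags of the lists, as a description. Shared endogenous peaks spanned little, with interquartile ranges of 13 to 16 tags and folds of 1.33 to 1.80. Over so narrow a range, with many equal tag counts, these values cannot show whether strengths in the lists are related.

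None of the 5 strongest peaks of either list overlapped a peak of the other list, where 0.665% of all biotin peaks and 21.6% of all endogenous peaks of the chromosome did. By fold, the biotin list was led by chr11:61342230-61344382, with a fold of 20.7 and 229 tags (200.3 to 261), 29.5 kb from the nearest endogenous peak. Then came chr11:43588425-43590504, with a fold of 19.5 and 320 tags, and chr11:118463630-118465707, with a fold of 18.7 and 307 tags, where the nearest endogenous peak was 530.0 and 1052 kb away. The fourth, chr11:72972729-72975783, had a fold of 18.1, and chr11:114711623-114715515 had a fold of 17.75 and 712 tags (661 to 766). These 5 peaks were 2078 to 3893 bp wide, well above the median width, and lay in windows of 62 to 288 biotin peaks.

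The endogenous list was led by chr11:57115599-57116655, with a fold of 4.01 and 72 tags (56.3 to 90.7), 6.77 kb from a biotin peak. The next, chr11:51268702-51269736, had a fold of 3.99 and 82 tags (65.2 to 102) and lay 0.854 kb from one. The third, chr11:40638538-40639389, had a fold of 3.39 and 53 tags, chr11:64495934-64496680 a fold of 3.31 and 41 tags, and chr11:110283185-110283819 a fold of 3.17 and 91 tags. All 5 had more than the median of 14 tags.

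Among overlapping pairs, the smallest sum of ranks by fold was that of chr11:85487192-85488478, with a biotin fold of 16.2 and 206 tags (179 to 236). The endogenous peak inside it, chr11:85487512-85488082, had a fold of 1.76 and 13 tags (6.92 to 22.2), and the summits were 98 bp apart. Next came chr11:58052469-58053639, with folds of 13.2 (biotin) and 1.5 (endogenous, 14 tags), and chr11:13846422-13848038, with 11.4 and 1.61 (14 tags), whose summits were 889 and 1068 bp apart. Over the 10 pairs with the smallest sum of ranks by fold, the biotin fold ran from 9.48 to 16.2 with 119 to 277 tags, and the endogenous fold from 1.06 to 1.76 with 13 to 19 tags. Summits lay within 250 bp in 1 of the 10. By endogenous fold they took places 88 to 323 of 342. Biotin ranks were taken among 11128 peaks and endogenous ranks among 342, so the biotin fold largely decided which pairs were chosen. The weak endogenous peaks of these pairs are therefore not a finding about shared peaks. Among all 74 shared endogenous peaks, the fold reached 3.13 and the tag count 109. They lay in sparse windows, such as that of chr11:38066071-38067969, with 6 biotin peaks, and in dense ones, with up to 130.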

How the data were processed

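The authors deposited 1 peak list per ChIP library, not pooled. Per the submitters' processing notes, R 2.15.2 and BWA 0.5.7 were used on build mm9, with no roles stated, and no peak caller or control is named. Per the file headers, the deposited lists give tag counts per peak, a fold enrichment (a ratio), a score of 10 times the −log10 p-value, a false discovery rate in percent, and width and summit in bp.

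Peaks on chromosome 11 outside the HoxB region were compared with the other 18 autosomes. Chromosome length was the largest listed end. Windows of 1 Mb were counted by peak midpoint, between the first listed peak and the last complete window, without the HoxB window. Peaks were shared at 1 bp or more of overlap (counts identical with bedtools 2.31.1). Intervals are Poisson, Clopper-Pearson and Newcombe. Procedures were tested on simulated data. Regions, settings and the choice of chromosome 11 were made with earlier results of these data known. Named peaks are the 5 highest by fold in each list and the 10 shared pairs with the smallest sum of ranks by fold. Other named regions are the 5 longest runs, and the 5 densest and sparsest windows. Python 3.11.15, pandas 2.3.3 and scipy 1.17.1 were used.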

Additional observations from a re-analysis of the deposited data

How the results depend on the processing

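Of 73 alternative values for 20 results, 38 stayed within the interval of the main value and 35 moved beyond it. No value whose interval excludes the null turned to the other side, but for most alternatives this could not happen. Shares and window counts were set against 0, which they cannot cross, and medians and runs had no null. For the differences in endogenous share, most main intervals included 0. Chromosome 11 kept the first place in biotin density and the last in endogenous density under every alternative run. These alternatives reuse the same lists, and the chromosome was chosen with both places known, so this is no independent check. Biotin density relative to the median of the other autosomes, 1.53, became 1.49 for the stronger 50% of the list by fold, 1.5 without the widest 10% and 1.64 by covered length. The endogenous share of 21.6% became 14.0% where 50% of the shorter peak had to overlap, 5.56% where summits had to lie within 250 bp and 32.5% where gaps of up to 1 kb were allowed. It became 10.7% in the stronger 50% of each list by fold, 29.5% after removal of endogenous peaks of up to 15 tags and 3.22% after shortening the biotin list to the endogenous length. In the same order the biotin share of 0.665% became 0.431, 0.171, 1.05, 0.345, 0.234 and 1.52%. The difference in endogenous share from the other autosomes changed sign to −0.04 points (−3.89 to 5.42) for the stronger 50%, where the main interval includes 0, and was 4.21 points (0.03 to 9.06) without the widest 10%. With summits within 250 bp it was 0.79 points (−1.23 to 3.77) in all, 8.43 (1.25 to 21.3) in windows of 41 to 80 biotin peaks and −6.79 (−9.22 to −1.05, on 2 of 90 peaks) in windows of 81 to 150.

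The median per window became 40.5 biotin and 1 endogenous peaks with windows of 0.5 Mb, 161.5 and 5 with windows of 2 Mb, and 38 and 1 for the stronger 50%. The share of biotin peaks in runs became 33.3% with gaps of up to 0.5 kb, 82.0% with gaps of up to 5 kb and 29.3% for the stronger 50%, and runs over 20 kb then numbered 7, 340 and 6. For the stronger 50%, the biotin medians became 1584 bp, a fold of 6.02 and 113 tags, and the endogenous medians 601 bp and a fold of 1.76. Without the widest 10%, the biotin medians became 1055 bp, a fold of 3.96 and 49 tags. Fewer peaks, other joins or other windows change these values by construction. No paired analysis was possible because each group has 1 library, and no replicate could be left out. Unknown library depth limits every statement on density.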
